A study of Rattus norvegicus with 6 samples.

Results

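Prostaglandins are short-lived lipid signals made from arachidonic acid. The genes described here encode enzymes that make or break down prostaglandins and receptors that detect them: Pla2g4a, Ptgs1, Ptgs2, Ptges, Ptgis, Ptgds, Hpgd, Ptger2, Ptger4 and Ptgfr. They were picked by symbol, and 8 of the 10 symbols stand in the deposited table of 23091 genes. Ptges, which makes prostaglandin E2 from the cyclooxygenase product, and Ptgis, prostacyclin synthase, matched no symbol and are not analysed here under those names. Of the 8 genes found, 6 had enough counts to be tested, Hpgd stayed under the count filter and Ptgds had no count.

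Cytosolic phospholipase A2 frees arachidonic acid from membranes, and the cyclooxygenases turn it into prostaglandin H2, from which separate synthases make the E2, D2, F2 and I2 prostaglandins. Ptgs1 is usually described as the constitutive cyclooxygenase gene and Ptgs2 as the one induced by cytokines and growth factors. Marrow stromal cells are known to release prostaglandin E2, which acts on neighbouring immune cells through cAMP-raising receptors.

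RNA came from rat marrow cells labelled as wild-type mesenchymal stem cells, held for 7 days in neural differentiation medium. The 3 CK samples received DMSO and the 3 CYSP samples received CYSP, a treatment whose composition is not spelled out in the labels. The series asks how expression changes while treated cells become neuron-like. The labels do not say whether the replicates are separate cultures or animals. The p-values therefore set each difference only against the spread among these particular samples, and that spread may be technical.

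Each library held 15060933 to 17244700 counts. Gene levels are in TMM-scaled CPM, counts scaled to the library total after edgeR's TMM correction. A count of 0 is compatible with up to 3 counts, which is 0.174 to 0.199 CPM of the uncorrected library totals, for counting error only. All 8 stromal markers were counted: Col1a1, Col1a2, Pdgfra, Pdgfrb and Thy1 had group means of 242 CPM or more, Nt5e and Eng of 10.7 to 35.0 CPM, and Lepr of under 1 CPM. The list summed to 67126 to 69362 CPM in CK and 15957 to 17141 in CYSP. Most of either sum came from Col1a1 and Col1a2, with means of 40647 and 25770 CPM in CK and 9663 and 5319 in CYSP. Col1a1, Col1a2 and Pdgfrb were lower, 4 genes were higher and Lepr did not pass the test. The median log2 fold change over the 8 stromal markers was 0.16. The 7 neuron markers summed to 12.1 to 13.5 CPM in CK and 85.7 to 90.5 in CYSP. Among them Tubb3 and Snap25 rose and Map2 fell, 4 were not tested, and Rbfox3 was at 0. Macrophage markers were also present. The 8 macrophage markers summed to 1671 to 1895 CPM in CK and to 500 to 507 in CYSP, with 7 of the 8 lower. Macrophages and platelets also make prostanoids, and the platelet list summed to 7.66 to 8.93 CPM in CK and 47.3 to 50.9 in CYSP. Nearly all of the latter came from Pf4, while Gp9 and Ppbp were at 0. Of the 6 mast cell markers, Cpa3, Fcer1a, Ms4a2, Tpsb2 and Cma1 were at 0. The 7 endothelial markers summed to 6.04 to 6.84 CPM in CK and 3.92 to 4.98 in CYSP. Of the 4 tested, Tie1 and Tek fell, Kdr rose from 0 to 58 summed counts and Vwf from 7 to 72. Kdr, Vwf and the neuron marker Snap25 passed the count filter only through CYSP, and Tek only through CK. The filter therefore largely set the directions of these genes. The part of these cell type markers in the prostaglandin results was not tested. In bulk RNA a smaller number of cells of a type cannot be told apart from less RNA per cell.

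The 3 synthesis genes that rose together are shown first by the sequence just before their start sites. Each run is the 250 bases upstream of the RefSeq start in GRCr8, 5′ to 3′ on the gene's strand, with capitals marking matches to any of 7 searched motifs. No source used here names the build behind the deposited table, so these positions belong to the RefSeq table alone.
Ptgs2, chr13:64713813-64714062, plus strand: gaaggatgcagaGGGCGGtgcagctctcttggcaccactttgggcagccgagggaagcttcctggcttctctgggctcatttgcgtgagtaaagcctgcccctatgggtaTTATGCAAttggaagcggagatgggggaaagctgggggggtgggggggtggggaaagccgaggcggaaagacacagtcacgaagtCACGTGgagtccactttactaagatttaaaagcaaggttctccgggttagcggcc
Ptgs1, chr3:39981169-39981418, plus strand: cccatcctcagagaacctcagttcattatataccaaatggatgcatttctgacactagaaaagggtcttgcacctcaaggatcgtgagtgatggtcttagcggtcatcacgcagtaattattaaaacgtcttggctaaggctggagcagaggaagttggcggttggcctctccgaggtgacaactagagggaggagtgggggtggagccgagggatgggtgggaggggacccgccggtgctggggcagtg
Pla2g4a, chr13:64572353-64572602, minus strand: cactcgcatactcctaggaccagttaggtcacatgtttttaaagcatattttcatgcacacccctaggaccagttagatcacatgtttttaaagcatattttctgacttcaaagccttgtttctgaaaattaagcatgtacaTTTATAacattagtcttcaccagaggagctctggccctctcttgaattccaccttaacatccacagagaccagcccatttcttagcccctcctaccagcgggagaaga

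The motifs, read on both strands, were the TATA box (TATAAA), the E-box (CACGTG), the cAMP response element (TGACGTCA), the AP-1 site (TGANTCA), a C/EBP site (TTGCNNAA), the GC box (GGGCGG) and the NF-kappaB site. The Ptgs2 window held an E-box 55 to 50 bases before the start. It also held a C/EBP match on the opposite strand, 140 to 133 bases before the start, and a GC box, 238 to 233 bases before it. Among the same 250 upstream bases of all 33469 RefSeq promoters, 5.59% held the E-box, 9.22% the C/EBP letters and 30.5% the GC box. Pla2g4a held the TATA box letters on the opposite strand, 108 to 103 bases before its start, as did 12.9% of promoters on either strand. The Ptgs1 window held none of the 7 motifs. The full cAMP response element, in 1.59% of promoters, the AP-1 site, in 6.34%, and the NF-kappaB site, in 6.33%, matched in none of the 3 windows. Among the other members, C/EBP letters also stood in the windows of Ptges and of Ptgfr, which moved only 1.12-fold. The Ptgfr matches lay 34 to 27 and 23 to 16 bases before its promoter start, which lies 1024 bases from the annotated gene start. Ptges, Ptgds and Hpgd held the GC box, and Ptger2 and Ptger4 held no match. The promoter starts of Ptger2 and Ptger4 lie 2281 and 1072 bases from their annotated gene starts. A match is a run of letters and not evidence of binding, and the absence of one says only that the letters are not in this window.

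All 6 tested genes passed the test for a difference between treated and control samples. Pla2g4a, Ptgs1 and Ptgs2, which start the pathway, rose by 4.06-fold to 26.5-fold, while the 3 receptor genes moved less and in both directions. In edgeR's quasi-likelihood test, adjusted by Benjamini-Hochberg over 12623 genes, 5 of the 6 were higher in CYSP and 1 was lower. Across all tested genes 76.1% passed, 38.2% higher and 37.8% lower, so passing the test sets no gene apart and the sizes carry the description. The groups did not overlap in any of the 6, as was so for 76.9% of tested genes. The median log2 fold change was 1.86 over the 6 genes and 0.0046 over all tested genes.

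Pla2g4a encodes the cytosolic phospholipase A2 that releases arachidonic acid. Its level was 43.6, 42.4 and 42.7 CPM in the CK samples and 172, 175 and 177 in the CYSP samples. Every treated sample stood about 4 times above every control. The log2 fold change was 2.02 (SE 0.046, edgeR adjusted p = 4.67e-53).

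Ptgs2, the inducible cyclooxygenase gene, had the highest FPKM, a level per transcript length, of the 8 genes found in every sample. In TMM-scaled CPM it stood at 149, 175 and 144 CPM in CK and at 2081, 2180 and 2126 CPM in CYSP. The second CK sample was the highest of the controls, and the gap to the treated samples was many times the spread within either group. The log2 fold change was 3.77 (SE 0.082, edgeR adjusted p = 6.23e-07), or 13.6-fold.

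Per length, the deposited FPKM (fragments scaled to transcript length and library total) of Ptgs2 rose from 36.7 ± 3.92 to 472 ± 13.1 (mean ± SD, n = 3 per group). Ranked from the highest FPKM down, Ptgs2 was number 1485 to 1806 of 23091 genes in CK and number 116 to 125 in CYSP. Pla2g4a moved in the same ranking from between 3728 and 3825 to between 953 and 985.

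Ptgs1, the constitutive cyclooxygenase gene, rose from a far lower level. It had 31, 21 and 20 counts in the CK samples, which is 1.75, 1.32 and 1.21 CPM. In CYSP it had 664, 539 and 553 counts, or 40.3, 36.4 and 37.7 CPM. The control level was low but counted in every sample, and all treated samples lay far above it. The log2 fold change was 4.73 (SE 0.14, edgeR adjusted p = 2.69e-46), or 26.5-fold, the largest of the 6 on counts. On the log2(FPKM + 1) scale, which understates the change of low genes, the order turned, with 3.23 for Ptgs1 and 3.66 for Ptgs2.

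**Figure D1:**
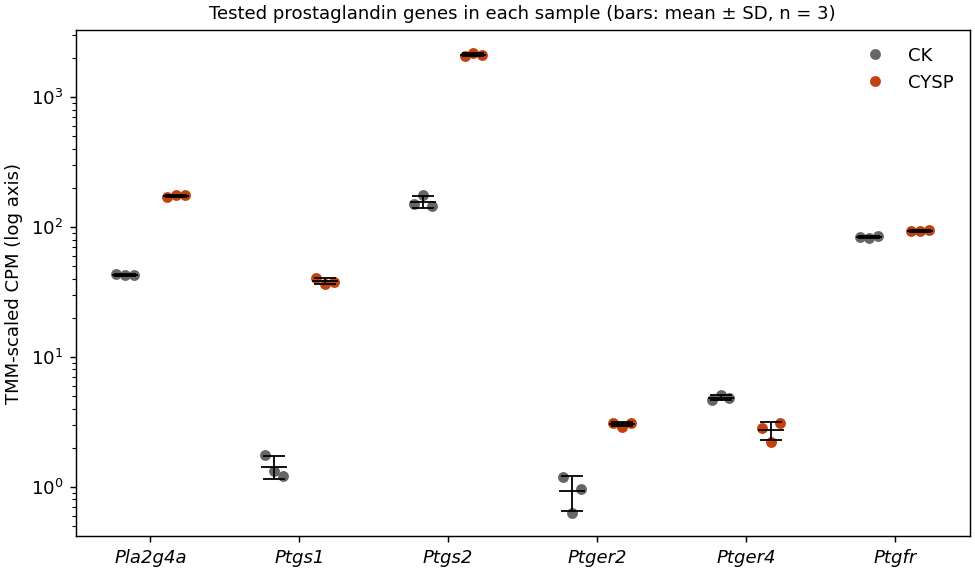
TMM-scaled CPM on a log axis of the 6 tested prostaglandin genes, with a point for each sample and bars for the mean ± SD of 3 samples per group. Pla2g4a, Ptgs1 and Ptgs2 are far higher in the CYSP samples, Ptger2 is higher, Ptger4 is lower, and Ptgfr moves from 83.4 to 93.6 CPM.

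Ptgs2 supplied nearly all cyclooxygenase transcript per length in both groups. Of the summed FPKM of Ptgs1 and Ptgs2, Ptgs2 made up 98.2%, 98.8% and 98.7% in the CK samples and 97.0%, 97.4% and 97.3% in the CYSP samples. The groups did not overlap, and the share was lower in CYSP by 1.32 percentage points (exact two-sided permutation p = 0.1, the smallest that 3 against 3 can give). The sum itself went from 37.2 ± 3.9 to 486 ± 12.5 FPKM. Ptgs2 also outgrew the phospholipase gene: the ratio of Ptgs2 to Pla2g4a FPKM was 2.16 to 2.64 in CK and 7.69 to 7.99 in CYSP (exact permutation p = 0.1).

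Pla2g4a and Ptgs2 are neighbours on chromosome 13 in the RefSeq annotation, with only the pseudogene Tmem208-ps1 and the non-coding Ptgs2os annotated between them. On the far side of Ptgs2 the next protein-coding symbols are Pdc, which had 1 count over CK and 10 over CYSP and was not tested, and Odr4. Odr4 stood at 31.2 CPM in CK and 33.5 in CYSP (log2 fold change 0.10, edgeR adjusted p = 0.20). These neighbours were looked up after the values of the pair had been seen.

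Ptgds and Hpgd, the other members found, were at or near 0. Ptgds, a prostaglandin D2 synthase known from brain and meninges, was at 0 counts in all 6 libraries, a result that leaves room for up to 0.199 CPM of the uncorrected total in the smallest of them. Hpgd encodes 15-hydroxyprostaglandin dehydrogenase, the enzyme of the first step of prostaglandin breakdown. It had 0, 1 and 1 counts in CK and 0, 2 and 1 in CYSP, under the 3-count limit in every sample. No difference in Hpgd was detectable at this depth, and a ratio of Ptgs2 to Hpgd would reflect Ptgs2 alone.

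A further row carries a clone-based symbol, AABR07054614.1, and the description prostaglandin I2 synthase, the name of the Ptgis product. It was found after its values were seen and lies outside the selection by symbol. Its counts were 10, 21 and 7 in CK and 4, 1 and 2 in CYSP, so the groups did not overlap. It stayed under the count filter and was not tested.

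The receptor genes moved in different directions. Ptger2 encodes EP2, a prostaglandin E2 receptor that raises cAMP through the G protein Gs. It had 21, 10 and 16 counts in CK and 51, 43 and 45 in CYSP, or 1.18, 0.628 and 0.966 against 3.10, 2.90 and 3.07 CPM. The lowest treated sample was more than 2 times the highest control. The log2 fold change was 1.69 (SE 0.31, edgeR adjusted p = 1.68e-06), and 0.90 on the log2(FPKM + 1) scale.

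Ptger4 encodes EP4, the other Gs-coupled E2 receptor. It stood at 4.62, 5.09 and 4.83 CPM in CK and at 2.85, 2.23 and 3.07 in CYSP. All treated samples lay below all controls, with 243 counts summed over CK and 125 summed over CYSP. The log2 fold change was -0.83 (SE 0.21, edgeR adjusted p = 3.86e-04). With a coefficient of variation of 0.4 assumed for every gene the call ended (edgeR adjusted p = 0.28).

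Ptgfr, the receptor for prostaglandin F2α, which signals through Gq and calcium, differed least. Its level was 83.6, 81.7 and 84.8 CPM in CK and 92.5, 93.1 and 95.2 CPM in CYSP. The groups were separate, yet the difference was only 1.12-fold (log2 fold change 0.17, SE 0.047, edgeR adjusted p = 9.85e-04). This call ended when only library size was used for scaling (log2 fold change 0.08, edgeR adjusted p = 0.097), in all 3 fits on FPKM and with an assumed coefficient of variation of 0.2 or 0.4. In the authors' deposited table the log2 fold change of Ptgfr is 0.08 with an adjusted p of 0.76, and that of Ptger4 is -0.92 with an adjusted p of 0.0012.

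**Figure D2:**
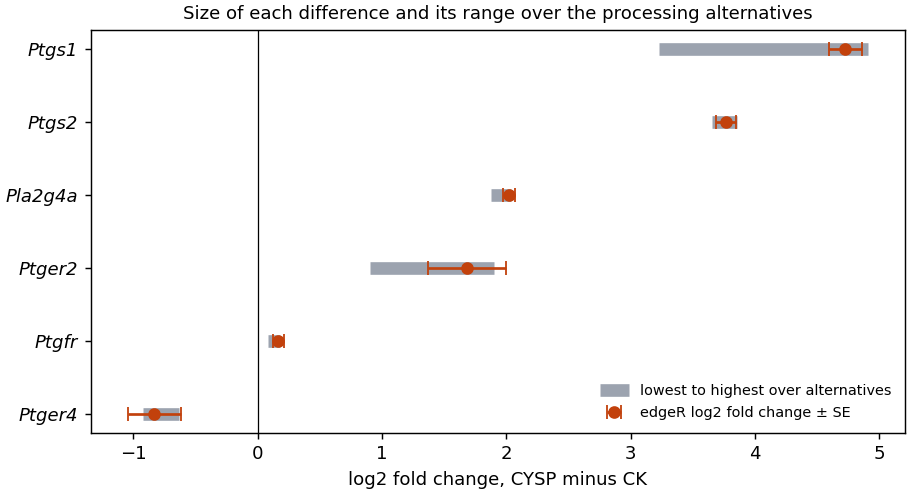
log2 fold change of CYSP over CK for the 6 tested genes, with points and bars for the edgeR value ± SE and grey bands for the lowest to highest value over the processing alternatives. No band crosses 0, and that of Ptgfr comes closest, at 0.08.

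The order of the members by level changed with treatment. By mean FPKM in CK it ran Ptgs2 (36.7), Ptgfr (28.6), Pla2g4a (15.7), Ptger4 (3.01), Ptger2 (0.704) and Ptgs1 (0.527), with Hpgd at 0.025 and Ptgds at 0. Ptger2 and Ptgs1 were neighbours that did not differ beyond their spread in CK, since their samples overlapped between 0.478 and 0.646 FPKM. In CYSP it ran Ptgs2 (472), Pla2g4a (60.4), Ptgfr (30.3), Ptgs1 (13.3), Ptger2 (2.17), Ptger4 (1.59), Hpgd (0.039) and Ptgds. No samples of adjacent genes overlapped in CYSP apart from the last pair. Ptgs1 had gone from below Ptger4, and not set apart from Ptger2, to above both, and Ptger2 and Ptger4 had changed places.

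Per length, the balance between the Gs-coupled receptor genes reversed. Ptger2 made up 23.9%, 13.1% and 19.7% of the summed FPKM of Ptger2 and Ptger4 in the CK samples and 57.1%, 61.5% and 55.1% in the CYSP samples. The share was higher in every treated sample (exact two-sided permutation p = 0.1, the smallest possible here). The counts behind these shares are low, with 47 for Ptger2 over CK, and 139 for Ptger2 and 125 for Ptger4 over CYSP. In TMM-scaled CPM the CYSP samples of Ptger2 (2.90 to 3.10) and Ptger4 (2.23 to 3.07) overlapped.

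The remaining E2 receptors put these shares in proportion. Ptger3, which encodes the Gi-coupled EP3 receptor, was the highest E2 receptor gene in CK at 10.2, 10.1 and 9.53 FPKM and fell to 2.92, 3.71 and 4.01 FPKM in CYSP. Its log2 fold change was -1.43 (SE 0.12, edgeR adjusted p = 2.02e-18). Ptger1, whose EP1 product signals through calcium, stood at 3.64, 4.24 and 4.14 FPKM in CK and at 4.30, 3.77 and 5.58 in CYSP. Those samples overlapped, and although the counts passed the test (log2 fold change 0.32, edgeR adjusted p = 0.015), the call ended without CK replicate 1 (edgeR adjusted p = 0.10), without CYSP replicate 3 (0.22), with DESeq2 (0.051) and in 6 further alternatives.

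Summed over the 4 E2 receptor genes, FPKM was 17.7 ± 0.31 in CK and 11.9 ± 1.51 in CYSP (n = 3 per group, exact permutation p = 0.1). The share of Ptger3 in that sum went from 56.3% ± 1.62 to 30.0% ± 3.9, and that of Ptger2 from 3.99% ± 1.24 to 18.5% ± 1.97. Ptgfr, with 61.8% ± 0.84 of the FPKM of all 5 receptor genes in CK and 71.9% ± 2.22 in CYSP, exceeded the 4 E2 receptor genes together in both groups. Transcripts of the receptors for prostacyclin (Ptgir) and thromboxane (Tbxa2r) had at most 15 and 11 counts in a sample and were not tested. Ptgdr2, a prostaglandin D2 receptor gene, had at most 4.

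**Figure D3:**
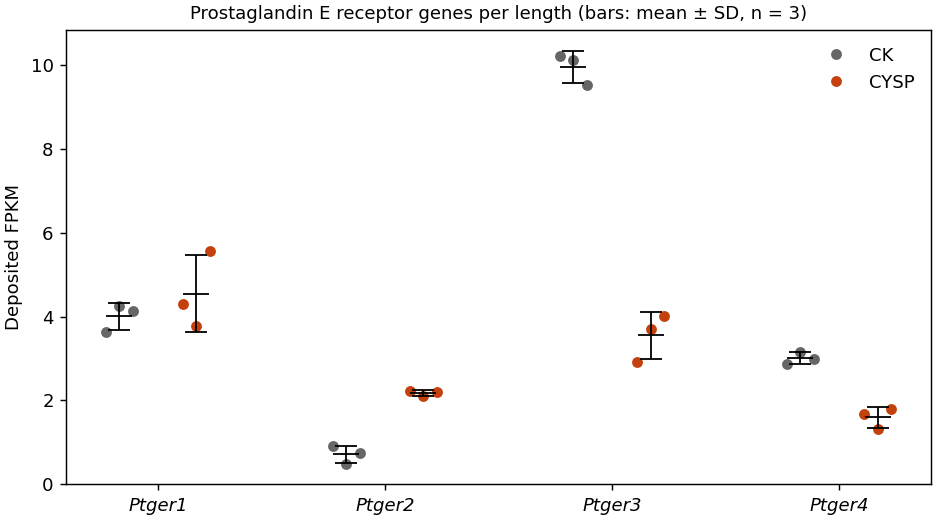
Deposited FPKM of the 4 prostaglandin E2 receptor genes, with a point for each sample and bars for the mean ± SD of 3 samples per group. Ptger3 is highest in CK at 9.97 and lower in CYSP at 3.55, Ptger2 and Ptger4 change places, and the Ptger1 samples overlap.

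Other pathway genes were read from 6 lists of 76 genes, of which 73 were found and 64 tested, with 35 higher and 20 lower in CYSP. The counts of each list are to be read against the 38.2% of all tested genes that were higher and the 37.8% that were lower. In the arachidonate supply list 6 of 9 tested genes rose and 2 fell (median log2 fold change 0.52). The list pools lipases with genes of other roles, among them Acsl4 and Lpcat3, which rose, and Anxa1, which fell. Its count therefore gives no direction of arachidonic acid supply. The secreted phospholipase gene Pla2g2a stood at 0.338, 0.251 and 0.423 CPM in CK and at 241, 230 and 231 CPM in CYSP. Summed over each group it had 17 counts in CK and 10758 in CYSP, and its log2 fold change was 9.40 (SE 0.1, edgeR adjusted p = 1.51e-76). It passed the count filter only through CYSP. Pla2g12a, another secreted phospholipase gene, rose by 1.80 on the same scale. Mgll, the monoglyceride lipase that frees arachidonic acid from an endocannabinoid, fell by 2.63.

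Among genes of terminal enzymes, breakdown and transport, 5 of 9 tested rose and 2 fell (median log2 fold change 0.44). The genes of the transport step moved in opposite directions. Slco2a1, the carrier that takes prostaglandins up into cells, fell from 53.2 ± 1.61 to 3.38 ± 0.583 CPM (log2 fold change -3.98, edgeR adjusted p = 9.46e-49). Abcc4, a pump that can export prostaglandins among other substrates, rose from 20.3 ± 0.545 to 129 ± 6.33 CPM (log2 fold change 2.67, edgeR adjusted p = 9.34e-55). Ptgr1, a reductase that acts on prostaglandin and leukotriene breakdown products, rose by 2.48 on the log2 scale. The E synthase genes outside the selection, Ptges2 and Ptges3, had log2 fold changes of 2.21 and -0.44. They are named here because Ptges itself was not matched, a choice made after their values were seen. The symbol Ptges3 is shared by several identifiers, between which reads could have been divided.

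The other receptor list had 3 tested genes, Ptger1, Ptger3 and Ptgfrn, with 1 higher and 2 lower (median log2 fold change -0.91). Ptgfrn, a membrane protein first described as an inhibitor of F2α binding to its receptor, fell from 502 ± 12.8 to 268 ± 6.02 CPM (log2 fold change -0.91, edgeR adjusted p = 2.38e-41). That call ended with an assumed coefficient of variation of 0.4 (edgeR adjusted p = 0.19).

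In the lipoxygenase and epoxide branches, which draw on the same arachidonic acid, 5 of 7 tested genes rose and 2 fell (median log2 fold change 0.65). Alox15, a lipoxygenase gene, was at 0 counts in CK and at 181 summed over CYSP, at least 66.0-fold higher against a floor of 3 counts summed over CK. Lta4h, which makes leukotriene B4, rose from 58.5 ± 1.94 to 94.7 ± 3.64 CPM, a call that ended with an assumed coefficient of variation of 0.4 (edgeR adjusted p = 0.37). Cysltr1, a leukotriene receptor gene, went from 52 counts over CK to 5 over CYSP. Alox5 went from 7 counts over CK to 45 over CYSP, and Alox5ap from 42 to 17. Alox15 and Alox5 passed the count filter only through CYSP, and Cysltr1 and Alox5ap only through CK. Their directions were largely set by that filter, so the rises and falls counted in this list carry little weight.

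**Figure D4:**
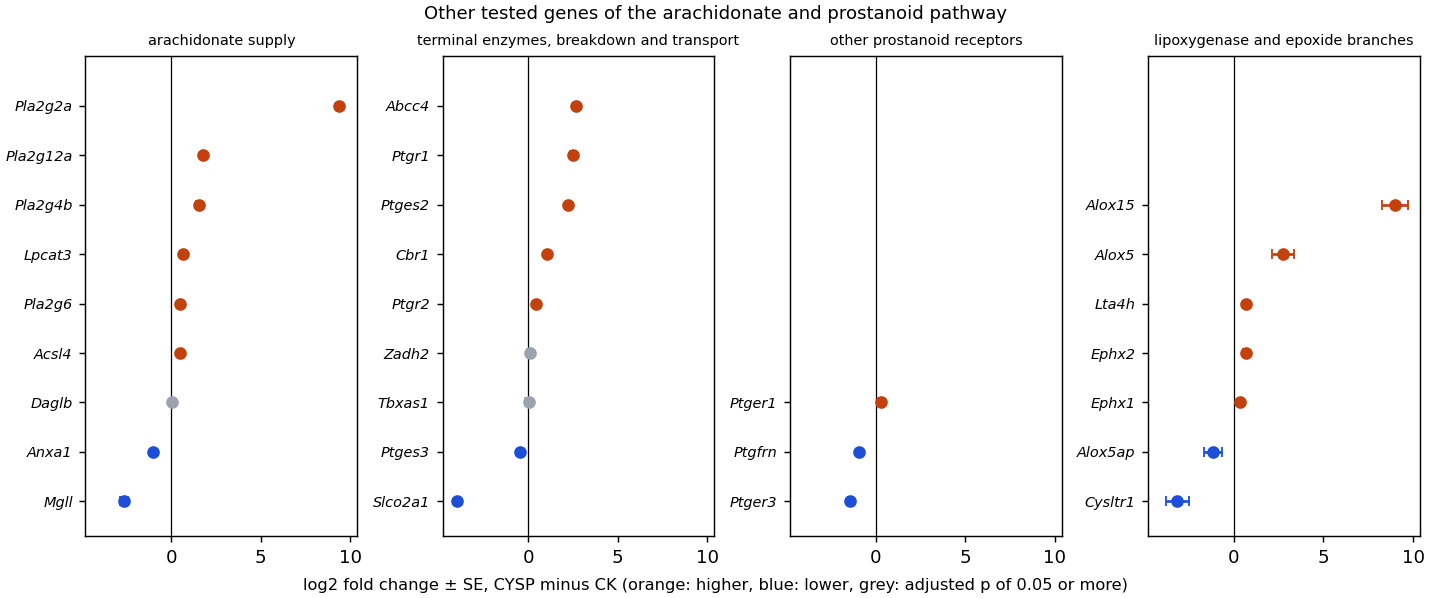
log2 fold change ± SE of CYSP over CK for the tested genes of 4 lists: arachidonate supply, terminal enzymes with breakdown and transport, other prostanoid receptors, and the lipoxygenase and epoxide branches. Orange marks genes higher in CYSP and blue genes lower at an adjusted p under 0.05. Pla2g2a lies farthest right at 9.40 and Slco2a1 farthest left at -3.98. The point of Alox15 is a fitted value against 0 counts in CK and no bound.

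Downstream of EP2 and EP4, 8 of the 18 tested Gs and cAMP genes rose, 4 fell and 6 did not pass (median log2 fold change 0.02, near that of all genes). The phosphodiesterase genes Pde4b and Pde3b, whose products break down cAMP, rose from 20.4 ± 1.99 to 133 ± 2.83 CPM and from 8.61 ± 0.729 to 37.0 ± 3.15 CPM. Adcy3, an adenylyl cyclase gene, fell from 8.21 ± 0.338 to 1.77 ± 0.63 CPM. The other genes that rose were Pde4d, Prkaca, Prkar2b, Crem, Nr4a1 and Nr4a2, and the others that fell were Gnas, Adcy4 and Adcy7. The list pools genes that make cAMP, break it down or respond to it. Neither its count nor its median therefore gives a direction of cAMP signalling.

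Of 18 genes known to control Ptgs2, 10 rose and 8 fell (median log2 fold change 0.30). The list mixes activators with inhibitors, so neither the count nor the median gives a direction of control. Those that fell were Il1b, Tnf, Nfatc1, Fos, Jun, Rela, Elavl1 and Nfkb1. Those that rose, besides Cebpb, Il1r1 and Il1rn, were Il1a, Nr3c1, Cebpd, Dusp1, Zfp36, Mapk14 and Nfkbia. Nfkb1 fell only 1.09-fold, with samples that overlapped between the groups, and Nfkbia rose only 1.19-fold. Cebpb, a transcription factor that binds C/EBP sites, rose from 35.7 ± 2.18 to 169 ± 3.83 CPM. Il1r1, the interleukin 1 receptor, rose from 50.1 ± 1.02 to 374 ± 7.17 CPM (log2 fold change 2.90). Il1rn, which blocks that receptor, rose by 3.97 on the log2 scale. Il1b, a ligand of it, fell from 88.7 ± 7.32 to 24.9 ± 0.772 CPM. Macrophage markers were lower in the same samples, while Il1a and Il1rn rose there. Whether these changes are linked was not tested. Nor was it tested whether any of the 18 listed genes bears on the level of Ptgs2.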

How the data were processed

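RNA of 6 rat samples, 3 CK and 3 CYSP by title, was profiled by sequencing of oligo(dT)-enriched RNA, per the labels' protocols. The submitters' processing notes name fastp 0.18.0, HISAT2, StringTie 1.3.1 and RSEM with no role. The build, annotation and strand setting were not given in the sources used here. The deposited table holds counts per gene, FPKM per sample and the authors' mean FPKM, per the file headers. The authors' log2 fold change and p-values, raw and adjusted, are deposited too, from a test that no source used here names. If RSEM made the deposited counts, they are rounded estimates.

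Counts of 12623 genes kept by filterByExpr were fitted with edgeR 4.0.16 in R 4.3.3 (TMM, robust glmQLFit, glmQLFTest), with Benjamini-Hochberg adjustment and a threshold of 0.05. SEs come from the fold change and F statistic. Libraries of 15060933 to 17244700 counts set the precision of low genes. Shares of FPKM were compared by exact permutation. Alternatives were other scalings, DESeq2 1.42.0, limma 3.58.1 on log2(FPKM + 1) and log2(FPKM + 0.1), other filters, samples left out, a replicate block and assumed coefficients of variation.

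The members, lists, motifs and tests were chosen with earlier results of these data known. All members are named. From each list the rule takes up to 3 genes past the threshold with the largest change and a group mean of at least 1 CPM, and 1 of the minority direction. Some further list genes are named where a list pools unlike roles or where the count filter bore on the direction. Promoters come from RefSeq (GRCr8), where 9 of the 10 symbols matched, and motifs were set with the sequences in view.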

Additional observations from a re-analysis of the deposited data

How the results depend on the processing

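The 6 member genes kept the sign of their difference under every alternative that could test them, and Pla2g4a, Ptgs1, Ptgs2 and Ptger2 also kept their call in each. The number of members called ranged from 4 to 6, and was 6 without any 1 of the samples. Over all genes 9600 were called, 9342 to 9438 with a sample left out, 5903 with an assumed coefficient of variation of 0.2, 2705 with 0.4, and 3515 where the change also had to reach 1 on the log2 scale. Of the list genes 55 were called, and 25 with 0.4. With the replicate number as a block 9485 genes were called. Deviations of same-numbered samples from their group means correlated at -0.00063, 0.019 and -0.0089 over all tested genes. Counting noise is part of these deviations, so the values cannot decide whether same-numbered samples share a culture or animal. With a sample left out, the difference in the Ptgs2 share of cyclooxygenase FPKM ranged from -1.51 to -1.19 percentage points and in the Ptger2 share from 36.1 to 41.5, and both were computed from CPM as -0.85 and 36.9. The planned log2 ratio of Ptgs2 to Hpgd differed by 3.56 between groups, 3.36 to 3.73 with a sample left out, and by 3.64 with a pseudocount of 1, but Hpgd is under the counting limit. Depth limits Hpgd and Ptgds, in CK also Ptger2 and Ptgs1, and in CYSP the comparison of Ptger2 with Ptger4.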
